A study of Homo sapiens with 15 samples.

Results

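The BCL2 family decides whether the outer membrane of the mitochondrion stays closed or releases cytochrome c, which starts the caspase cascade of intrinsic apoptosis. Its guardian proteins, such as BCL-xL and MCL1, hold the membrane closed by binding the BH3 helix of their relatives, the BH3-only proteins sense stress or the loss of growth factor signals, and the effectors BAX and BAK form the pores. In epithelial cancer cells that depend on EGFR, the BH3-only protein BIM is best known as the arm that growth factor signals hold down through ERK, which marks the protein for destruction and keeps its transcript low.

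Described here are 10 members of this family, chosen by gene symbol from the 61552 genes counted. The anti-apoptotic members were BCL2L1 (BCL-xL) and MCL1, the BH3-only members were BCL2L11 (BIM), BMF, BIK, BBC3 (PUMA), PMAIP1 (NOXA) and BID, and the effectors were BAX and BAK1. All 10 were matched to one Ensembl gene each and passed the filter on low counts in every comparison.

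Expression was measured by RNA-seq in 15 libraries of MDA-MB-468, a triple-negative breast cancer cell line with abundant EGFR, with 3 replicates in each of 5 groups. In the drug experiment, parental cells were serum starved for 12 h and then given EGF at 10 ng/mL alone (EGF), EGF with 10 μM cSNX1.3 (cSNX1.3) or EGF with 15 μM erlotinib (erlotinib) for 12 h. cSNX1.3 is a peptide against the retrograde traffic of EGFR toward the nucleus, and erlotinib blocks the kinase. The control group had EGF alone, with no control peptide. In the line experiment, cells carried an IPTG-induced shRNA against the untranslated end of the endogenous EGFR transcript and a transfected EGFR-GFP, either wildtype (WT) or with arginines and a lysine of the nuclear localization sequence changed to aspartic acid (ΔNLS), and were treated with EGF. WT and ΔNLS are separate transfected lines, so the mutation and other differences between the lines cannot be told apart. Doses are those of the study's methods, which do not give the EGF dose of the lines in the text used here.

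Library totals ran from 22915676 to 35900649 counts. EGFR stood at 4733 ± 360 CPM (counts scaled by library size; SD, n = 3) in EGF, 6143 ± 372 in cSNX1.3, 4708 ± 246 in erlotinib, 1340 ± 168 in WT and 1727 ± 33.7 in ΔNLS, where the counts of the lines include the introduced coding sequence. EPCAM, KRT8, KRT18, KRT19 and CDH1, which mark epithelial cells, were expressed in all groups, while PTPRC and CD3E, which mark leukocytes, had 0 to 7 counts per library. PECAM1, of endothelium, had 22 to 46 counts per library in parental cells and 140 to 185 in the lines. COL1A1, a fibroblast collagen, was detected at 8.26 to 21.3 CPM, and its partner COL1A2 had at most 2 counts in a library. Nothing in the sources states that the replicates were separate cultures, so the p-values measure the spread between these libraries, which may be technical.

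BH3-only proteins share little beyond a short helix, read here from the coding sequence as a leucine, 3 residues of any kind, a glycine or alanine, and an aspartate. A search of the 10 proteins encoded by the canonical transcripts (GENCODE 44) found this pattern exactly 1 time in each. The 6 BH3-only stretches, 30 bases each, are shown because they are the part these genes have in common, while their transcript levels moved apart in the comparisons that follow. Capitals mark the codons of the leucine, of the glycine or alanine, and of the aspartate.

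BCL2L11: caagagTTGcggcgtattGGAGACgagttt
BMF: cgaaagCTTcagtgcattGCAGACcagttc
BID: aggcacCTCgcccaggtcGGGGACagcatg
BIK: ctgcggCTGgcctgcatcGGGGACgagatg
BBC3: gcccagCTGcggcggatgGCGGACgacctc
PMAIP1: actcaaCTCaggagatttGGAGACaaactg

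In GRCh38 the stretches lie at chr2:111150097-111150126 in exon 3 of 4 on the plus strand for BCL2L11, chr15:40104201-40104230 in exon 4 of 5 on the minus strand for BMF, chr22:17739421-17739450 in exon 4 of 6 on the minus strand for BID. The others lie at chr22:43127710-43127739 in exon 3 of 5 on the plus strand for BIK, chr19:47226585-47226614 in exon 3 of 4 on the minus strand for BBC3, chr18:59902667-59902696 in exon 2 of 2 on the plus strand for PMAIP1. All are coding sequence. The small residue was an alanine in BMF and BBC3 and a glycine in the other 4.

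Between genes, levels were compared as TPM (counts divided by exon length and scaled to a common total). In EGF, MCL1 was the most abundant member at 224 ± 4.07 TPM (SD, n = 3), followed by BID at 133 ± 6.03, BAK1 at 105 ± 4.01, BAX at 86.3 ± 4.63, BCL2L1 at 51.8 ± 0.826, BIK at 47.6 ± 5.56 and PMAIP1 at 47.4 ± 2.40. BBC3 at 12.2 ± 3.10, BCL2L11 at 11.97 ± 0.987 and BMF at 4.67 ± 0.820 TPM were the scarcest. BIK and PMAIP1 did not differ beyond their spread, nor did BBC3 and BCL2L11. With the longest transcript as the length, BAX at 117 TPM stood above BAK1 at 74.9, so that the order of the effectors depends on the length used. The level of BCL2L1 carries a further limit, since 41.3% of its exon bases also belong to ABALON, an antisense gene with 0 counts in all libraries, and reads were counted without regard to strand. If reads that overlap both genes were dropped as ambiguous, the level of BCL2L1 is too low, which was not tested. The same holds for BMF, which shares 8.46% of its exon bases with BMF-AS1, also at 0 counts in all libraries.

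Across the 5 groups, BMF had the widest range of group means at 2.29 on the log2 CPM scale, followed by BCL2L11 at 1.58 and BIK at 0.97. MCL1 at 0.36 and PMAIP1 at 0.18 had the narrowest. From here on, levels are CPM on the common scale of all libraries, unless TPM is stated. Log2 fold changes come from the model fitted to each experiment.

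**Figure D1:**
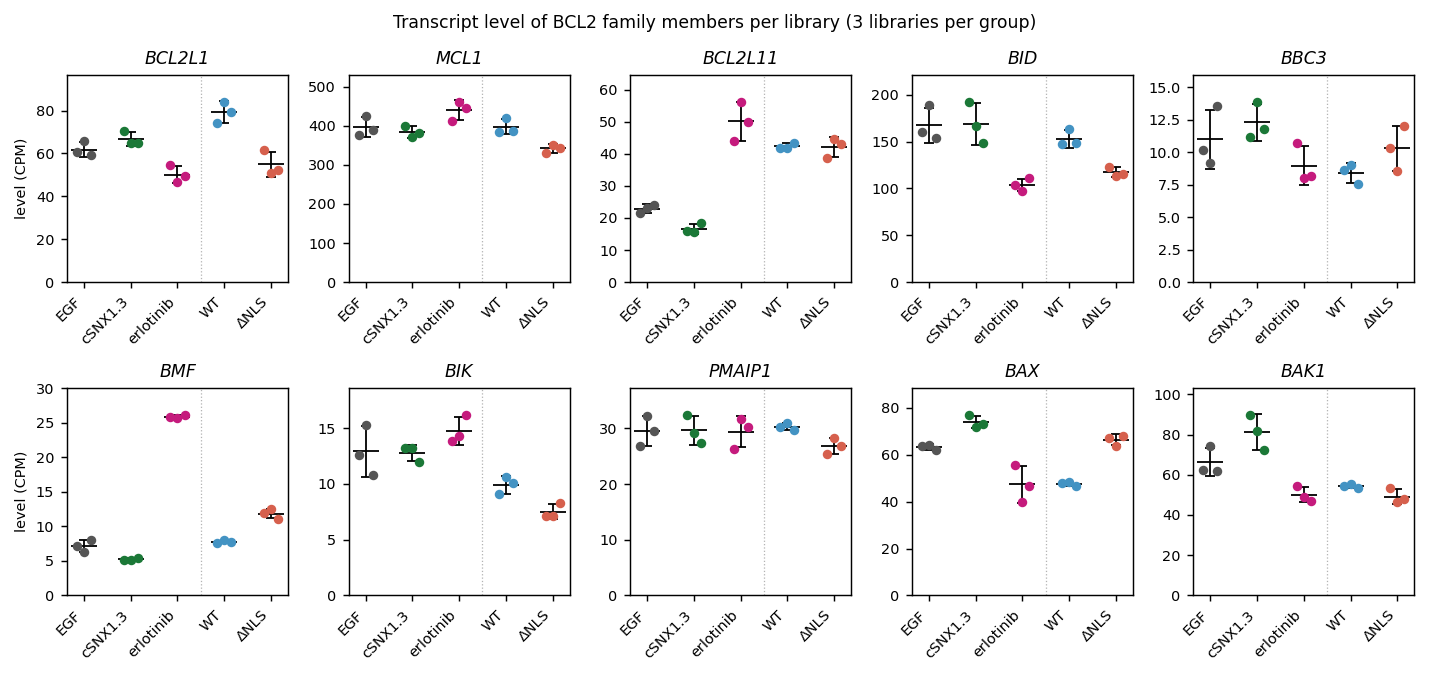
Level of each member in CPM (y axis, from 0, own scale per panel) in the 5 groups (x axis). Points are the 3 libraries of a group, bars the mean and its SD. Erlotinib stands above EGF alone for BMF and BCL2L11, while the PMAIP1 points of neighbouring groups overlap throughout.

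Among the 10 members, blocking the kinase raised a pair of BH3-only genes and lowered the effectors. HRK, a BH3-only gene outside the members, also rose, by 1.26 on the log2 scale. With erlotinib, BMF and BCL2L11 rose, BID, BAX, BAK1 and BCL2L1 fell, and MCL1, BIK, BBC3 and PMAIP1 did not pass the test. These 6 of 10 members stand against 44.0% of all 15738 genes tested in erlotinib vs. EGF, 22.8% higher and 21.2% lower. In absolute size, the median log2 fold change was 0.34 for the members and 0.34 for all genes. In bulk RNA, fewer cells of a kind and less RNA per cell cannot be told apart.

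BMF, a BH3-only protein tethered to the cytoskeleton until cells are stressed or detached, was at 7.19, 6.30 and 8.03 CPM in the EGF libraries and at 25.8, 25.7 and 26.1 CPM with erlotinib. The erlotinib libraries lay close together and far above every EGF library. BMF was 3.63-fold higher, a log2 fold change of 1.86 ± 0.12 (SE; edgeR adjusted p = 7.06e-09).

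BCL2L11 encodes BIM, which binds all of the guardians and can engage BAX directly. It was at 21.4, 23.2 and 24.1 CPM with EGF alone and at 44.1, 56.3 and 50.0 CPM with erlotinib. The groups did not overlap, and the log2 fold change was 1.14 ± 0.11 (SE; edgeR adjusted p = 7.56e-07). The antisense gene MIR4435-2HG shares 10.8% of the exon bases of BCL2L11. It changed the other way, by -0.96 ± 0.09 on the log2 scale (SE; edgeR adjusted p = 7.16e-07), and had 473 to 634 counts per erlotinib library, against 1376 to 1488 for BCL2L11.

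BID, which caspase-8 cleaves to link death receptors to the mitochondrion, moved in the opposite direction. It was at 160, 189 and 154 CPM with EGF alone and at 104, 97.5 and 111 CPM with erlotinib. Every erlotinib library was below every EGF library, and BID was 1.6-fold lower with a log2 fold change of -0.68 ± 0.10 (SE; edgeR adjusted p = 8.48e-05). The remaining BH3-only members did not pass the test. PMAIP1, whose product NOXA binds MCL1, had a log2 fold change of 0.01 with a 95% confidence interval of -0.22 to 0.23. BIK, a BH3-only protein of the endoplasmic reticulum, had 0.21 with an interval of -0.07 to 0.48. For BBC3, which encodes PUMA, the value was -0.28 and the interval -0.63 to 0.06.

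The pore formers fell together. BAX was at 62.1 to 64.2 CPM with EGF alone and at 40.0 to 55.9 CPM with erlotinib, a log2 fold change of -0.40 ± 0.10 (SE; edgeR adjusted p = 0.00496). BAK1 was at 62.0 to 74.3 CPM with EGF alone and at 47.1 to 54.2 CPM with erlotinib, with a log2 fold change of -0.39 ± 0.10 (SE; edgeR adjusted p = 0.00506). Of the guardians, BCL2L1 was at 60.5, 65.6 and 59.0 CPM with EGF and at 54.4, 46.7 and 49.2 CPM with erlotinib. Its log2 fold change was -0.29 ± 0.09 (SE; edgeR adjusted p = 0.0132). MCL1, a short-lived protein under heavy control after transcription, had a log2 fold change of 0.16 with an interval of -0.03 to 0.35 (edgeR adjusted p = 0.152). All 6 calls held without any one of the EGF or erlotinib libraries.

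**Figure D2:**
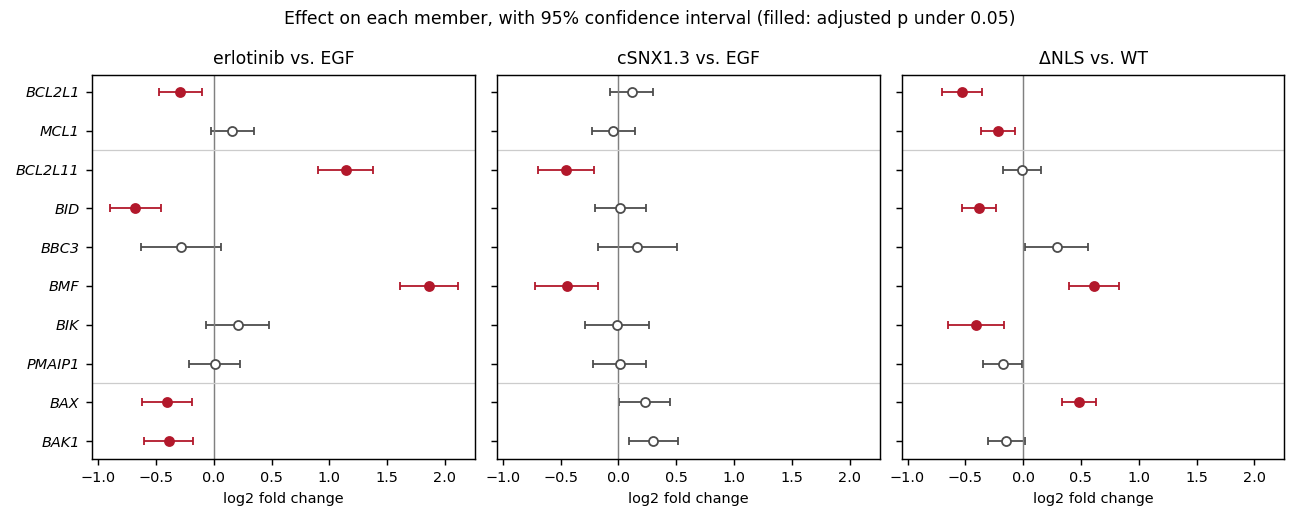
Log2 fold change (x axis) of each member (rows, grouped as anti-apoptotic, BH3-only and effector) in 3 comparisons, with 95% confidence intervals; filled points passed the adjusted p of 0.05. BMF at 1.86 and BCL2L11 at 1.14 lead the erlotinib panel, lie below 0 in the cSNX1.3 panel and part from each other in the ΔNLS panel.

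With cSNX1.3 the same pair moved the other way and by less. BCL2L11 and BMF fell, and the other 8 members did not pass the test. The share of all 15738 genes called in cSNX1.3 vs. EGF was 6.07%, 3.38% higher and 2.69% lower. In absolute size, the members had a median of 0.14 on the log2 scale and all genes 0.16. cSNX1.3 and erlotinib were both compared with the same 3 EGF libraries.

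BCL2L11 was at 15.8, 15.7 and 18.5 CPM with cSNX1.3, below the 21.4 to 24.1 CPM of the EGF libraries. Its log2 fold change was -0.45 ± 0.11 (SE; edgeR adjusted p = 0.0248). BMF was at 5.13, 5.18 and 5.44 CPM, below the 6.30 to 8.03 CPM with EGF alone, with a log2 fold change of -0.45 ± 0.13 (SE; edgeR adjusted p = 0.0487). Although the groups did not overlap for either gene, these calls rested on few libraries. The BMF call was lost without any one of the cSNX1.3 libraries and without EGF replicate 1 or 3, with adjusted p from 0.0984 to 0.227. The BCL2L11 call was lost without cSNX1.3 replicate 1 or 2 or EGF replicate 3, with adjusted p of 0.0659, 0.115 and 0.114. Both log2 fold changes stayed below 0 in each of these fits, from -0.54 to -0.41 for BCL2L11 and from -0.54 to -0.35 for BMF.

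The effectors leaned upward without passing the test. BAK1 was at 89.8, 82.0 and 72.2 CPM with cSNX1.3 and at 62.3, 74.3 and 62.0 CPM with EGF alone, with a log2 fold change of 0.30 and a 95% confidence interval of 0.09 to 0.51 (edgeR adjusted p = 0.0931). Without EGF replicate 2 the adjusted p was 0.0422. BAX had a log2 fold change of 0.23 with an interval of 0.01 to 0.45 (edgeR adjusted p = 0.235). The guardians BCL2L1 at 0.11 and MCL1 at -0.04 and the BH3-only members BBC3 at 0.16, BID at 0.02, PMAIP1 at 0.01 and BIK at -0.01 did not pass the test. For MCL1 the interval ran from -0.23 to 0.15.

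The treatments were also compared with each other, where 56.1% of all genes were called. In erlotinib vs. cSNX1.3, 7 members passed the test. BMF was higher with erlotinib by 2.31 ± 0.12 on the log2 scale (SE; edgeR adjusted p = 3.48e-10) and BCL2L11 by 1.59 ± 0.11 (SE; edgeR adjusted p = 1.00e-08). BID at -0.69, BAK1 at -0.69, BAX at -0.63, BBC3 at -0.44 and BCL2L1 at -0.40 were lower. BBC3 passed with an adjusted p of 0.0286 by edgeR and lost its call without cSNX1.3 replicate 2 or without erlotinib replicate 2 or 3, at 0.134, 0.110 and 0.101. MCL1 had a log2 fold change of 0.21 with an adjusted p of 0.0601 by edgeR, and passed at 0.0334 without erlotinib replicate 1, at 0.0312 with at least 10 counts in every library and at 0.0385 in the fit of all 15 libraries.

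The lines differed from each other in 6 members. BMF and BAX rose in ΔNLS vs. WT, BCL2L1, MCL1, BID and BIK fell, and BCL2L11, BBC3, PMAIP1 and BAK1 did not pass the test. This count stands against 41.4% of the 15805 genes tested, 20.4% higher and 21.0% lower. Median absolute changes were 0.34 for the members and 0.26 for all genes on the log2 scale.

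Both guardians fell. BCL2L1 was at 74.0, 84.2 and 79.3 CPM in WT and at 61.5, 50.9 and 52.3 CPM in ΔNLS, with no overlap and a log2 fold change of -0.53 ± 0.08 (SE; edgeR adjusted p = 9.03e-05). MCL1 was at 385, 420 and 388 CPM in WT and at 331, 352 and 344 CPM in ΔNLS. Its log2 fold change was -0.21 ± 0.07 (SE; edgeR adjusted p = 0.0212). The MCL1 call was lost without ΔNLS replicate 1 or 3, at an adjusted p of 0.0653 and 0.0768.

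Among BH3-only genes, BMF was at 7.64, 7.98 and 7.66 CPM in WT and at 11.1 to 12.5 CPM in ΔNLS. All ΔNLS libraries were above all WT libraries, by 1.53-fold or 0.61 ± 0.10 on the log2 scale (SE; edgeR adjusted p = 0.000185). BCL2L11 did not follow. It was at 41.8, 41.9 and 43.5 CPM in WT and at 38.8, 44.6 and 43.0 CPM in ΔNLS, with a log2 fold change of -0.01 and a 95% confidence interval of -0.17 to 0.15. The interval leaves out the size of the erlotinib effect on this gene. BID fell from 147, 164 and 148 CPM to 123, 113 and 116 CPM, a log2 fold change of -0.38 ± 0.07 (SE; edgeR adjusted p = 0.000401). BIK fell from 9.06, 10.6 and 10.1 CPM to 7.15, 7.12 and 8.26 CPM, a log2 fold change of -0.41 ± 0.11 (SE; edgeR adjusted p = 0.00888).

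The effectors parted. BAX was at 47.8, 48.3 and 46.5 CPM in WT and at 67.2, 63.8 and 68.2 CPM in ΔNLS, a log2 fold change of 0.48 ± 0.07 (SE; edgeR adjusted p = 3.60e-05). BAK1 was at 53.2 to 55.4 CPM in WT and 46.2 to 53.3 CPM in ΔNLS, with a log2 fold change of -0.15 and an interval of -0.31 to 0.01. BBC3 at 0.29 and PMAIP1 at -0.18 did not pass the test, with adjusted p of 0.0796 and 0.0849 by edgeR. The BBC3 value passed without ΔNLS replicate 2 or WT replicate 2, at 0.0232 and 0.0496, and BAK1 passed without ΔNLS replicate 1, at 0.0417.

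Whether the mutation acted on each member as the drugs did was tested as the difference between the effects in a fit of all 15 libraries. The ΔNLS effect and the erlotinib effect differed for 6 members, against 44.7% of 16524 genes. The erlotinib effect was the higher for BMF, by 1.24 on the log2 scale, for BCL2L11 by 1.14, for BIK by 0.60 and for MCL1 by 0.37. The ΔNLS effect was the higher for BAX, with a difference of 0.90 ± 0.13 (SE; edgeR adjusted p = 9.56e-06), and for BBC3, with 0.58 ± 0.22 (SE; edgeR adjusted p = 0.0366). BAX thus rose in one comparison and fell in the other. The BBC3 difference was lost without several single libraries, with adjusted p up to 0.155. For BCL2L1 and BID, which fell in both comparisons, the differences were -0.23 with an interval of -0.48 to 0.03 and 0.31 with an interval of 0.02 to 0.59, and neither passed the test. The effects of ΔNLS and of cSNX1.3, both directed at nuclear EGFR, differed for 5 members against 23.1% of all genes. BMF, BCL2L11, BCL2L1, BAK1 and BID were these members, and their values are given in the closing section.

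Order across all 5 groups placed the lines and the parental cells side by side, without a test. BMF was lowest with cSNX1.3 at 5.25 CPM, then 7.17 in EGF and 7.76 in WT, which overlapped, then 11.9 in ΔNLS and 25.9 with erlotinib. BCL2L11 was lowest with cSNX1.3 at 16.7 CPM, then 22.9 in EGF, 42.1 in ΔNLS and 42.4 in WT, which overlapped, and 50.2 with erlotinib. Every library of both lines held BCL2L11 above every EGF library, whereas BMF in WT overlapped EGF. BIK was lower in both lines, at 7.51 CPM in ΔNLS and 9.92 in WT, than in any parental group, the lowest being 12.8 with cSNX1.3. BAX was lowest with erlotinib at 47.5 CPM and in WT at 47.6, which overlapped, and highest with cSNX1.3 at 74.0. MCL1 neighbours overlapped from cSNX1.3 at 384 CPM to erlotinib at 440, and ΔNLS at 342 lay below them all. PMAIP1 and BBC3 neighbours overlapped throughout.

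The make-up of the 6 BH3-only members followed from these shifts. The shares and sums below leave out other family genes, so they do not describe the whole class. BAD, also BH3-only, was at 53.6 ± 2.48 TPM (SD, n = 3) in EGF and 61.4 ± 13.8 with erlotinib. BCL2L2, a further guardian, was at 35.3 ± 7.31 TPM in EGF and 34.3 ± 2.17 with erlotinib. BCL2L11 and BMF together made up 6.48% ± 0.826 (SD, n = 3) of the summed TPM of the 6 BH3-only members in EGF and 4.78% ± 0.788 with cSNX1.3. With erlotinib the share was 18.06% ± 1.23, in WT 11.15% ± 0.552 and in ΔNLS 14.43% ± 0.927. BID was the largest component in every group, at 51.8% ± 1.16 in EGF and 34.8% ± 1.77 with erlotinib. The summed TPM itself was 257 ± 6.68 in EGF, 246 ± 6.71 with cSNX1.3, 261 ± 22.5 with erlotinib, 241 ± 3.18 in WT and 215 ± 6.15 in ΔNLS. Erlotinib libraries overlapped those of EGF, and every ΔNLS library was below every WT library. For each TPM of MCL1 and BCL2L1 combined there were 0.932 ± 0.0320 TPM of BH3-only members in EGF, 0.935 ± 0.0639 with cSNX1.3, 0.817 ± 0.0306 with erlotinib, 0.838 ± 0.00443 in WT and 0.858 ± 0.0184 in ΔNLS. In this ratio every erlotinib library, at 0.787 to 0.848, was below every EGF library, at 0.902 to 0.966. The lower ratio went with a higher denominator, since the BH3-only sum itself did not fall. MCL1 and BCL2L1 combined were at 276 ± 3.69 TPM (SD, n = 3) in EGF and 320 ± 24.5 with erlotinib. MCL1 was at 224 ± 4.07 TPM in EGF and 274 ± 26.0 with erlotinib, though its log2 fold change from CPM-scaled counts did not pass the test. BCL2L1 was at 51.8 ± 0.826 and 46.1 ± 2.25 TPM. The share of BCL2L11 and BMF in the BH3-only sum rose. The TPM do not carry the common scale of the CPM, which limits comparing the sums between groups. These sums are descriptions of RNA and carry no test.

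**Figure D3:**
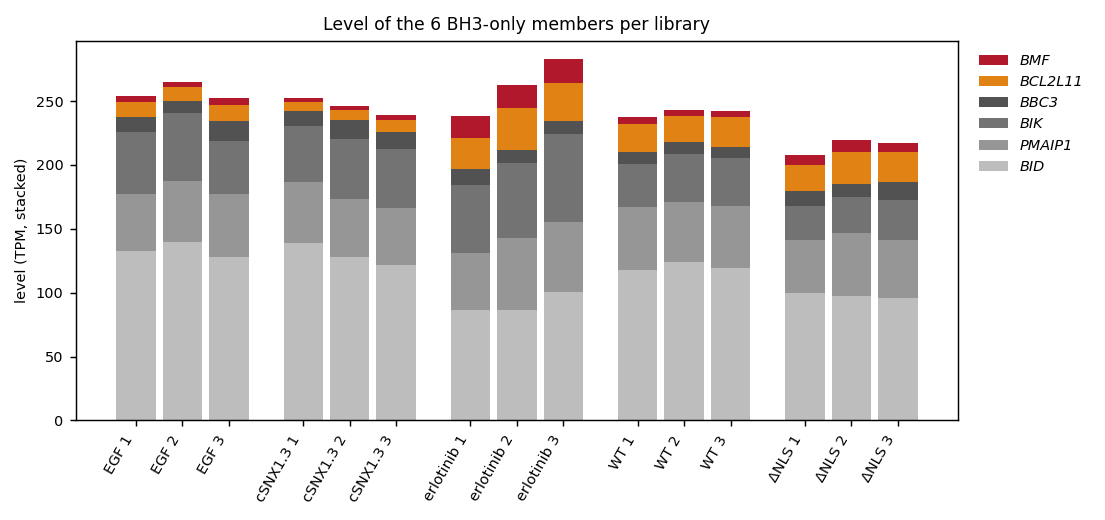
Level of the 6 BH3-only members in TPM, stacked (y axis, from 0), in each of the 15 libraries (x axis). BID forms the base of every bar, and the coloured top, BCL2L11 and BMF, is 17.3% to 19.5% of the bar with erlotinib against 5.66% to 7.32% with EGF alone.

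BCL2L11 and BMF are both known as genes that FOXO factors can activate when growth factor signals fall, so their promoters were read. RefSeq windows from 250 bases before to 50 after the start site (GRCh38.p14) were held for 8 of the 10 members, with no entry for MCL1 and BIK. The FOXO core GTAAACA, searched on both strands, had 1 match in the BCL2L11 window, 223 bases before the start site on the strand of the gene, and none in either window of BMF. It was present in 3.42% of all 35116 promoter windows. No other member's window held it. AP-1 (TGANTCA), E-box (CACGTG) and CRE (TGACGTCA) patterns were searched too, with no match in the windows of BCL2L11 and BMF. The BAX window had 4 E-box matches, that of BBC3 had 1 AP-1 and 1 E-box match, and some BID windows had 1 E-box match. The 250 bases before the start site of BCL2L11 at chr2:111120664-111120913, plus strand, are shown with the match in capitals, since BCL2L11 is the member that rose with erlotinib, fell with cSNX1.3 and did not pass the test in ΔNLS.

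BCL2L11 promoter: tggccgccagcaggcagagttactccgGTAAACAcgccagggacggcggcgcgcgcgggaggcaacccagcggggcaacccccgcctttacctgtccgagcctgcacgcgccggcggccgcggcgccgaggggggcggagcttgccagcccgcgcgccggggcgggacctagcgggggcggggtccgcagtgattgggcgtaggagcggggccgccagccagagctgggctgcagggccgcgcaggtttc

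A match describes the letters of the window only. Of the 14 transcription factors listed for their known action on member genes, 5 were called with erlotinib, 2 higher and 3 lower, beside 44.0% of all genes. JUN at -1.13, FOXO4 at 0.88 and MYC at -0.83 changed most on the log2 scale, and FOXO1 and FOXO3 did not pass the test. With cSNX1.3, where 6.07% of all genes were called, 4 were called, 2 higher and 2 lower, among them RUNX1 at 0.55, SMAD3 at 0.47 and FOXO4 at -0.54. FOXO4 was at 7.51 to 11.02 CPM with cSNX1.3, 13.1 to 15.1 CPM with EGF alone and 23.7 to 26.5 CPM with erlotinib. In ΔNLS vs. WT, 10 were called, 5 in each direction, against 41.4% of all genes, with FOXO1 at -1.16, TP63 at -1.10 and DDIT3 at 0.53 changed most. FOXO3 was called there at -0.17 (edgeR adjusted p = 0.0482), and FOXO4 at -0.08 did not pass the test (edgeR adjusted p = 0.514). Whether any of these factors bears on BCL2L11 or BMF was not tested.

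Genes known to be induced by ERK, the pathway known to hold BIM down, were read as a list of 10. All 10 were called lower with erlotinib, beside 21.2% of all genes. Their median on the log2 scale was -3.40, against 0.01 over all genes. The list was chosen with earlier results of these data known, so this contrast is a description and not a test. SPRY4 at -5.00, DUSP6 at -4.89 and FOSL1 at -4.41 changed most. With cSNX1.3, 5 were called against 6.07% of all genes, with FOSL1 at 1.13, PHLDA1 at 0.88, DUSP6 at 0.65 and DUSP4 at 0.50 higher and EGR1 at -1.75 lower. In ΔNLS vs. WT, 6 were called against 41.4% of all genes, with FOSL1 at 0.88, SPRY4, ETV5 and ETV4 higher and CCND1 at -0.92 and DUSP4 at -0.82 lower. Whether these movements bear on BCL2L11 or BMF was not tested.

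Control of MCL1 and BIM after transcription was read from 10 genes. With erlotinib, 4 were called, a share near the 44.0% of all genes. GSK3B, a kinase that marks MCL1 for destruction, changed by -0.43, DYNLL1, the dynein light chain that tethers BIM, by -0.40, and DYNLL2, the light chain that tethers BMF, by -0.22, while the ubiquitin ligase MARCHF5 rose by 0.28. In ΔNLS vs. WT, 4 were called and all fell, a share near the 41.4% of all genes. Among them were USP9X, which removes ubiquitin from MCL1, at -0.64, DYNLL2 at -0.40 and HUWE1, a ubiquitin ligase of MCL1, at -0.39. With cSNX1.3, 0 were called by edgeR, beside 6.07% of all genes, and 0 by DESeq2. Of the 10, 1 had an unadjusted p under 0.05.

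Of 13 further BCL2 family genes, 10 were tested. With erlotinib, 3 rose and 4 fell, beside 44.0% of all genes called. BCL2L14 rose by 1.45 ± 0.23 (SE; edgeR adjusted p = 0.000133) from a low level, with 24 to 38 counts per EGF library and 78 to 93 with erlotinib. HRK, a BH3-only gene, was at 3.57, 4.32 and 3.89 CPM with EGF alone and at 9.90, 9.37 and 8.68 CPM with erlotinib, a log2 fold change of 1.26 ± 0.18 (SE; edgeR adjusted p = 3.69e-05). BNIP3, a mitochondrial relative known for mitophagy and hypoxia, fell by 1.43 ± 0.10 (SE; edgeR adjusted p = 2.14e-08), and BCL2 itself changed by -0.63. In cSNX1.3 vs. EGF, 1 was called, beside 6.07% of all genes. It was BNIP3 at 0.48 ± 0.10 (SE; edgeR adjusted p = 0.00634), and HRK had a log2 fold change of 0.00. In ΔNLS vs. WT, 3 rose and 4 fell, beside 41.4% of all genes called, with BCL2L12 at 0.70, BNIP3L at -0.67 and BCL2 at 0.44 changed most. HRK fell there by 0.32 (edgeR adjusted p = 0.0468).

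Downstream of the pore, 23 genes of the apoptosome, caspases and their inhibitors were tested. With erlotinib, 11 were called, 2 higher and 9 lower, a share near the 44.0% of all genes. BIRC3, an inhibitor of apoptosis induced by NF-κB, was at 65.7 to 74.9 CPM with EGF alone and at 24.8 to 27.2 CPM with erlotinib, a log2 fold change of -1.44 ± 0.10 (SE; edgeR adjusted p = 1.91e-08). CYCS, cytochrome c itself, changed by -1.01 and VDAC1, the main channel of the outer membrane, by -0.92, while CASP9, the caspase of the apoptosome, rose by 0.65. In ΔNLS vs. WT, 12 were called, 6 in each direction, where 41.4% of all genes were called. BIRC5, survivin, an inhibitor of apoptosis that is expressed with mitosis, rose by 1.37 ± 0.07 (SE; edgeR adjusted p = 3.03e-10), with 98.9 to 105 CPM in WT and 254 to 278 CPM in ΔNLS. BIRC3 at -0.94 and APAF1, the scaffold of the apoptosome, at 0.44 were also called. DIABLO, which frees caspases from their inhibitors, was called higher in both comparisons, at 0.90 and 0.82. It lies within other annotated genes on its strand and had 35 to 126 counts per library, so its value is uncertain. With cSNX1.3, 0 of the 23 were called by edgeR, beside 6.07% of all genes, and 0 by DESeq2. Of the 23, 3 had an unadjusted p under 0.05.

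**Figure D4:**
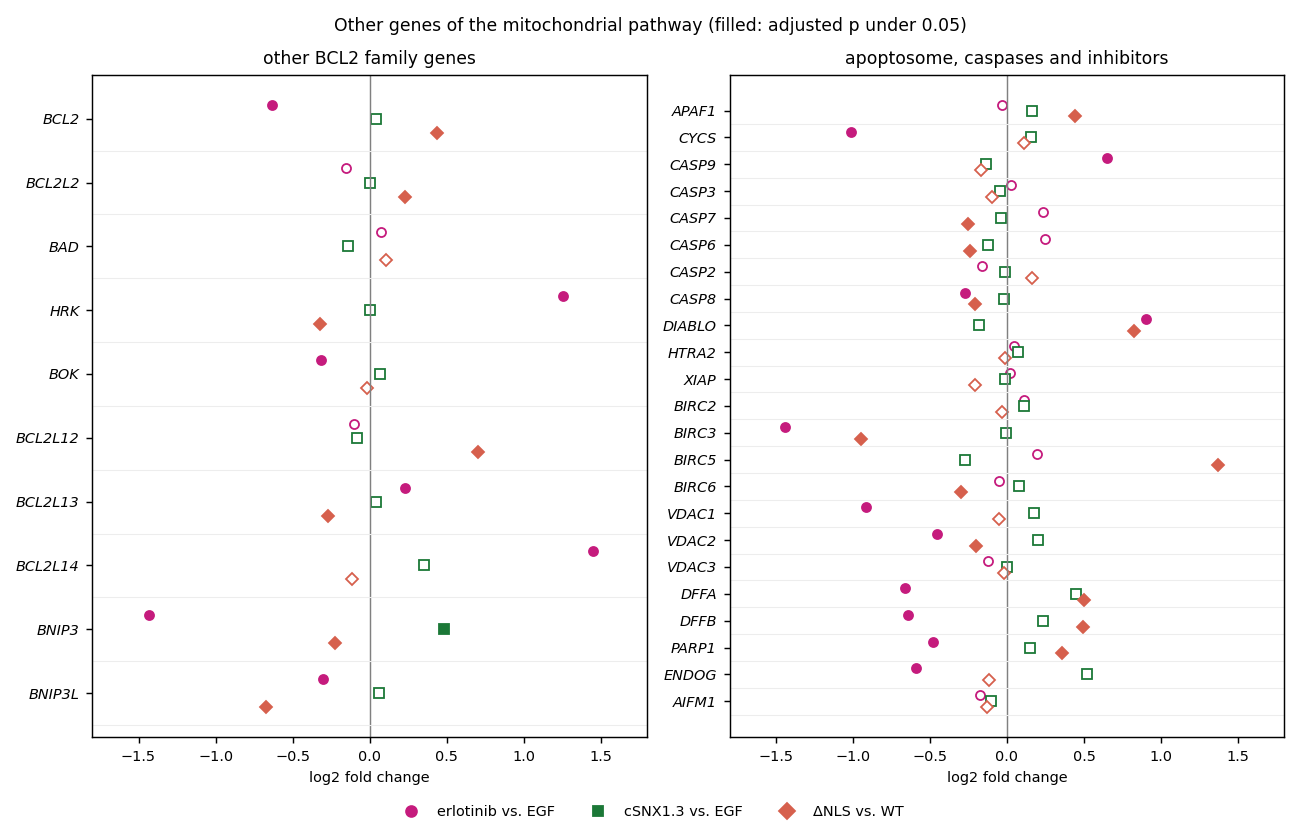
Log2 fold change (x axis) of the other BCL2 family genes tested (left) and of the apoptosome, caspase and inhibitor genes (right) in 3 comparisons, drawn without error bars; filled symbols passed the adjusted p of 0.05. With cSNX1.3 only BNIP3 is filled, whereas HRK, BCL2L14, BNIP3 and BIRC3 lie far from 0 with erlotinib and BIRC5 with ΔNLS.

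Counts per gene do not separate splice forms, so BCL-xL and BCL-xS, the forms of BIM and the long and short forms of MCL1 are each read as 1 value. They also do not measure protein, and most members act through binding and modification.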

How the data were processed

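For 15 libraries, the authors deposited raw counts per Ensembl gene, each of a read pair and without normalization. According to the methods, the authors trimmed reads with TrimGalore, aligned them to GRCh38 with STAR and counted them with featureCounts in paired mode without strand. The annotation release is not given in the sources used here. GENCODE 44 gave names, lengths and coordinates for 61399 of 61552 gene IDs, and 153 were not matched. Labels gave the groups, and all libraries were used.

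Counts were analysed with edgeR 4.0.16 (R 4.3.3), with TMM scaling, filterByExpr by group, a robust quasi-likelihood fit and Benjamini-Hochberg adjustment over all genes tested, at 0.05. The drug comparisons used the 9 drug libraries, ΔNLS vs. WT the 6 line libraries, and differences between effects all 15. Per-library totals between 22915676 and 35900649 counts set the precision, and intervals cover the spread between libraries. TPM used the union of annotated exons. Scripts were tested on simulated data. For cSNX1.3 vs. EGF, simulated with only those 2 groups, 34 of 67 genes changed 1.5-fold were recovered. There, 48 of 67 genes changed 2-fold and 63 of 66 changed 4-fold were recovered, so smaller changes can be missed. Alternatives were other scaling, DESeq2 1.42.0, other filters, a threshold of 0.01, a replicate block, other sets of libraries and leaving out single libraries.

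The members and gene lists were chosen with earlier results of these data known. The genes named are the 10 members, EGFR, and of each list the up to 3 called genes with the largest log2 fold change per comparison and genes whose known role bears on a member. For the 3 members with the widest range, the 3 genes with the highest Pearson r were named. A few genes within this rule were left out of the text, as were the members of 1 list, the p53 target genes. Of its 19 genes tested, 12 were called with erlotinib, beside 44.0% of all genes. In ΔNLS vs. WT, 13 were called, beside 41.4%. With cSNX1.3, 0 were called by edgeR, beside 6.07% of all genes, and 1 by DESeq2. Of the 19, 12 had an unadjusted p under 0.05 by edgeR.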

Additional observations from a re-analysis of the deposited data

Results flagged for a closer look

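Between the ΔNLS effect (ΔNLS vs. WT) and the cSNX1.3 effect (cSNX1.3 vs. EGF), 5 members differed by a test of the difference itself, in the edgeR fit of all 15 libraries. BMF rose by 0.61 in ΔNLS and changed by -0.45 with cSNX1.3, a difference of 1.06 ± 0.15 on the log2 scale (SE; edgeR adjusted p = 1.89e-05). The difference was 0.45 ± 0.14 for BCL2L11 (SE; edgeR adjusted p = 0.0213), which had -0.01 in ΔNLS and -0.45 with cSNX1.3. BCL2L1 had -0.53 in ΔNLS and 0.11 with cSNX1.3, a difference of -0.64 ± 0.12 (SE; edgeR adjusted p = 0.000591). For BAK1 the effects were -0.15 and 0.30 and the difference -0.44 ± 0.13 (SE; edgeR adjusted p = 0.0179). BID had -0.38 and 0.02, a difference of -0.39 ± 0.14 (SE; edgeR adjusted p = 0.0402). The differences of BMF and BCL2L1 passed without any one library. That of BCL2L11 was lost without cSNX1.3 replicate 2, EGF replicate 3 or ΔNLS replicate 2 or 3, with adjusted p up to 0.0654. That of BAK1 was lost without EGF replicate 1 or 3 or ΔNLS replicate 2, up to 0.0575, and that of BID without most single libraries, up to 0.115.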

How the results depend on the processing

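The erlotinib vs. EGF, erlotinib vs. cSNX1.3, ΔNLS vs. WT and ΔNLS minus erlotinib counts of members called stayed within 1.5 times under every alternative run. In cSNX1.3 vs. EGF, the count of 2 was 1 with no filter, with the replicate block or with only the 2 groups compared, 0 at an adjusted p of 0.01, and 0 to 3 without single libraries. All genes called there numbered 956, against 470 at 0.01, 1444 in a fit of all 15 libraries and 526 to 892 without single libraries. For ΔNLS minus cSNX1.3, the count of 5 was 2 at 0.01 and 2 to 6 without single libraries, and all genes called were 3819, against 2359 at 0.01. The replicate numbers did not pair the libraries, since deviations of same-numbered libraries correlated at -0.2 to 0.248. The block took 1 member from cSNX1.3 vs. EGF (BMF, adjusted p = 0.0739 by edgeR), from ΔNLS minus cSNX1.3 (BID, 0.0746) and from ΔNLS minus erlotinib (BBC3, 0.0683).

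Signs turned only for members that did not pass the test in that comparison. PMAIP1 in erlotinib vs. EGF was -0.0032 with DESeq2 size factors, -0.0033 by DESeq2, -0.0106 with no filter, -0.0045 with all 15 libraries and -0.0592 to 0.0837 without single libraries. With no filter in cSNX1.3 vs. EGF, BID was -0.0032 and PMAIP1 -0.0089, and without single libraries BID ran from -0.0846 to 0.1006, PMAIP1 from -0.0571 to 0.0645 and BIK from -0.1184 to 0.1185. In erlotinib vs. cSNX1.3, PMAIP1 was 0.0239 with at least 10 counts in every library, 0.0006 with only the 2 groups, and -0.0621 to 0.0751 without single libraries. BCL2L11 in ΔNLS vs. WT ran from -0.0528 to 0.0516, and BBC3 in ΔNLS minus cSNX1.3 from -0.0539 to 0.2643. The causes were not tested. With the longest transcript as length, the TPM of 7 members in EGF moved by more than their SD, among them BID to 168 and BIK to 33.9. Counts of 165 to 217 for BMF per EGF library limit the precision of its smaller effects.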

Other observations

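Across all 15 libraries, genes with a level pattern most like a member's were read by Pearson r of log2 CPM among 13060 genes, as a description. The libraries share 5 groups, so r mostly reflects group means. Nearest to BMF were CMAHP (0.990), SLC2A11 (0.984) and SELENBP1 (0.983). BCL2L11 was closest to TTC21B (0.986), MAGI3 (0.984) and ALDH5A1 (0.984). BIK was closest to MAGED2 (0.967), H2BC12 (0.949) and IFT57 (0.946).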
